A study of Mus musculus with 16 samples.

Results

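Integrins and laminins were followed in RNA-seq counts from the heart ventricles of 8-week-old mice whose heart muscle cells lack Rbpms, which encodes an RNA-binding protein. The genes were chosen by symbol, as integrin α or β chains (Itga or Itgb with a number or a chain letter) and as laminin α, β or γ chains (Lama, Lamb or Lamc with a number), and not by any measured value. The rule takes 37 of the 54108 genes in the table: 17 integrin α chains, 9 integrin β chains and 11 laminin chains. Genes that only share the first letters, such as the integrin-binding protein gene Itgb1bp2, are not among them.

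The cardiac knockout (cKO) mice carried floxed Rbpms alleles (Rbpms fl/fl) and a Cre recombinase driven by Myh6, a promoter of cardiomyocytes. The control mice carried Rbpms fl/fl and no Cre, so the presence of Cre and the loss of Rbpms cannot be told apart. Each genotype had 4 libraries, 3 from males and 1 from a female, which is replicate 3 in both. Pooling of tissue is not mentioned in the labels, and p-values therefore reflect only how far these libraries spread. Ventricles of newborn mice were not analysed here.

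Integrins are cell surface receptors made of 1 α and 1 β chain that tie the matrix outside the cell to the actin skeleton inside it. Laminins are cross-shaped trimers of 1 α, 1 β and 1 γ chain, and they form the sheet of every basement membrane, around each cardiomyocyte and under the endothelium. In heart muscle the main laminin receptor pairs α7 with β1, and the integrins at the costamere pass force between the sarcomere and the matrix. Integrins with the αv chain bind the RGD peptide of fibronectin, vitronectin and latent TGF-β, and some of them activate TGF-β. Collagens are bound by the α1, α2, α10 and α11 chains, each together with β1.

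Library totals ran from 20190334 to 24540433 counts. Levels are given as CPM, depth-scaled counts with TMM factors, and libraries are listed from replicate 1 to 4. Rbpms itself stood at 26.9 to 38.8 CPM in cKO libraries, against 101.6 to 193 CPM in control libraries, so no library went against its label (adjusted p = 3.54e-05, edgeR). Genes were called at an adjusted p under 0.05 in edgeR's quasi-likelihood test, with the Benjamini-Hochberg adjustment over all 16051 tested genes. By that rule 19.3% of all tested genes were called, 9.64% rising and 9.64% falling. With total counts in place of TMM the rising genes made up 66.1% of the calls, against 50.0% with TMM, and the median of all genes moved to 0.088 on the log2 scale, against 0.005.

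Of the 37 genes 34 were tested, and all 34 stood above the filter level of 0.445 CPM in every library of both genotypes. Calls went to 11 that rose (32.4% of the 34) and 2 that fell (5.88%), against 9.64% of all tested genes each way. All 9 called integrins rose (9 of 24 tested), while the called laminins split into 2 that rose and 2 that fell of 10 tested. The median log2 fold change, cKO over control, was 0.28 over the 34 genes and 0.005 over all tested genes. Among the 21 genes that were not called, 17 had a positive and 4 a negative log2 fold change. In CPM the 2 genotypes did not overlap for 14 genes, 12 higher and 2 lower in cKO ventricles, where 11.8% of all tested genes were separate upwards and 11.8% downwards.

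**Figure D1:**
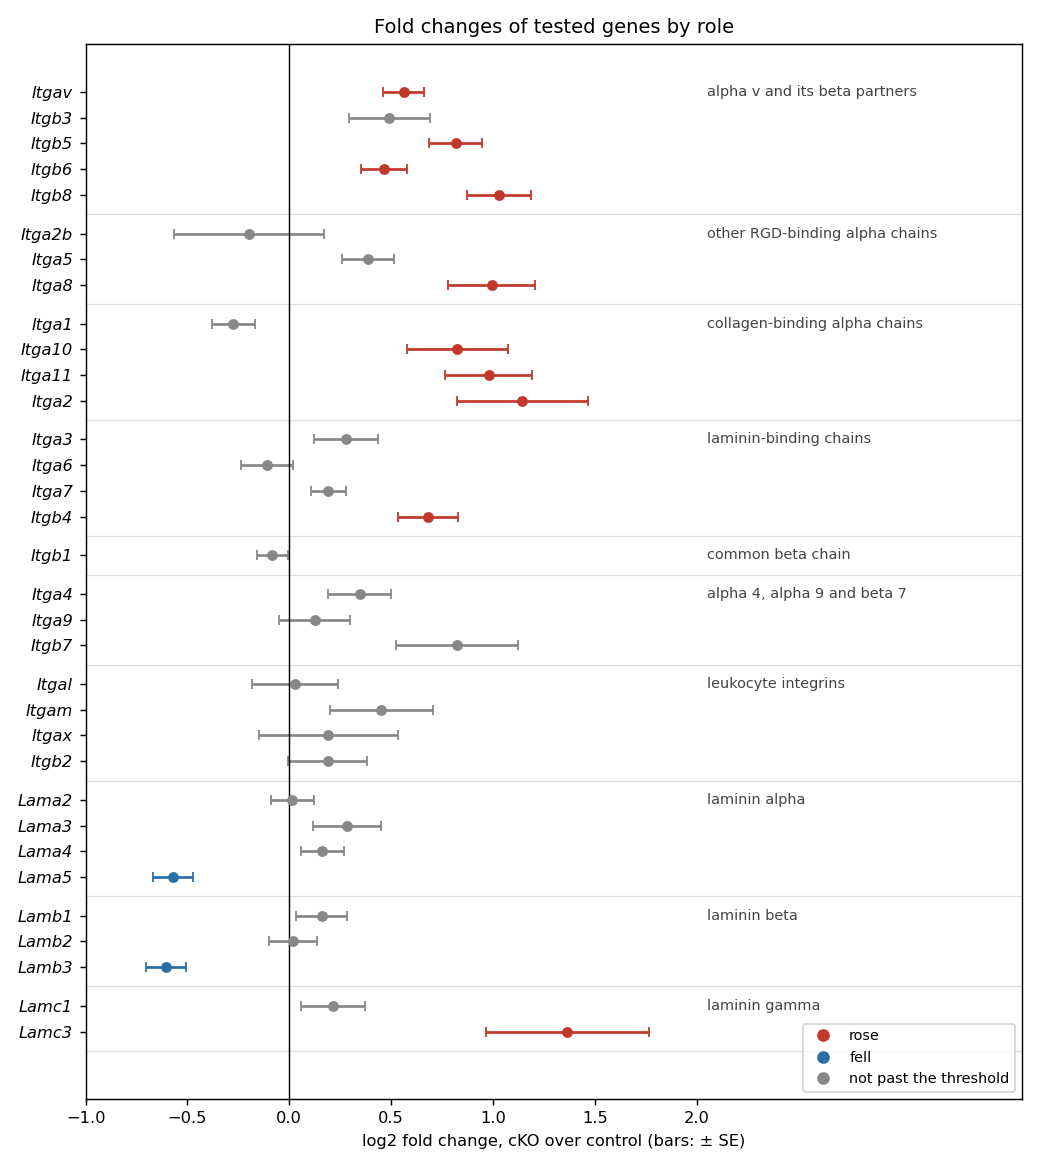
Log2 fold change, cKO over control (x axis), of tested integrin and laminin genes grouped by role, with bars of 1 SE. Red points rose, blue points fell and grey points did not pass the threshold: the 9 called integrins all lie to the right, and Lama5 and Lamb3 are the called genes to the left.

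The 250 bases before the annotated start are printed for 3 RGD-receptor genes that rose and for the laminin gene Lama5 that fell. These 4 genes were picked with their calls known, and Itgb6 and Itgb8, which also rose, are not printed. They are RefSeq sequences of the GRCm38.p6 build, 5′ to 3′ on the strand of the gene, and 24 of the 37 genes had an entry. Capitals mark matches to the GC box (GGGCGG, on either strand). The Itgav window is chr2:83724147-83724396 on the plus strand, the Itgb5 window chr16:33829415-33829664 on the plus strand, the Itga8 window chr2:12301945-12302194 on the minus strand and the Lama5 window chr2:180225860-180226109 on the minus strand.
Itgav: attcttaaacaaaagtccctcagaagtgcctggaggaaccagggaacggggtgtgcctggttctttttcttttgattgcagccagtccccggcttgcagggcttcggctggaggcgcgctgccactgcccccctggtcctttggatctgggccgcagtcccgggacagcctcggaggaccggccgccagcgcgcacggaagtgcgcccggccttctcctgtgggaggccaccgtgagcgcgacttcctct
Itgb5: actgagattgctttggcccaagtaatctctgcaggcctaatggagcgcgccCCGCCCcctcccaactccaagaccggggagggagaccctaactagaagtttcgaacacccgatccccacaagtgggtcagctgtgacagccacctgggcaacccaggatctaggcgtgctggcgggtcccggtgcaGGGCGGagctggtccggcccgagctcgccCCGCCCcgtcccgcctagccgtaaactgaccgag
Itga8: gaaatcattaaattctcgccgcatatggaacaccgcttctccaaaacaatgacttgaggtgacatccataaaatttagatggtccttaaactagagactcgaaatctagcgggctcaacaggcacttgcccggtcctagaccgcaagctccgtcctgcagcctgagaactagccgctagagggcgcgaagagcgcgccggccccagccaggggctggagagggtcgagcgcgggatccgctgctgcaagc
Lama5: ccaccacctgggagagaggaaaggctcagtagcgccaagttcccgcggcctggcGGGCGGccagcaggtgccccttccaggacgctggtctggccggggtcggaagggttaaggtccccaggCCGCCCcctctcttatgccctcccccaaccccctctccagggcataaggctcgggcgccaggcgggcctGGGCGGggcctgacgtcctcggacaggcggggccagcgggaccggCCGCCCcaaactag
All 4 windows were richer in CpG than the median promoter, with 18 CpG in Itgav, 18 in Itgb5, 18 in Itga8 and 19 in Lama5, against a median of 6 over 32851 promoters. GC content was 64.4% for Itgav, 65.2% for Itgb5, 56.4% for Itga8 and 72.4% for Lama5, where the median promoter had 52.4%. The GC box was found 3 times in Itgb5, 4 times in Lama5 and not in Itgav or Itga8, and 32.7% of all promoters hold it. Searched on both strands, the letters TGANTCA (AP-1, in 6.75% of promoters), GGAATG (TEAD, in 12.6%) and CAGACA (SMAD, in 17.1%) were in none of the 4 windows. No pair of the 4 motifs overlapped in these windows, since only the GC box was found.

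Levels of different genes can be compared only per length, here as CPM per kilobase of merged exons. Itgb1, the β chain shared by most integrins, came first, at 176 CPM per kilobase in cKO ventricles and 187 in controls. Next were the laminin chains Lamb2 (91.7 in cKO and 90.6 in control ventricles) and Lamc1 (71.0 and 61.2 in the same order). Itgb5 followed, at 61.1 CPM per kilobase in cKO ventricles and 34.7 in controls. The leading α chain of the integrins was Itga7, at 33.7 in cKO ventricles and 29.5 in controls. In control ventricles 20 of the 37 genes reached 1 CPM per kilobase. At the low end of the tested genes stood the collagen receptor chain Itga2, with 0.369 CPM per kilobase in cKO and 0.166 in control ventricles. With the longest transcript as the length, the first 3 places kept their order in controls, and Itga7 (67.9 in cKO and 59.5 in control ventricles) came ahead of Itgb5 (66.1 in cKO and 37.5 in control ventricles).

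**Figure D2:**
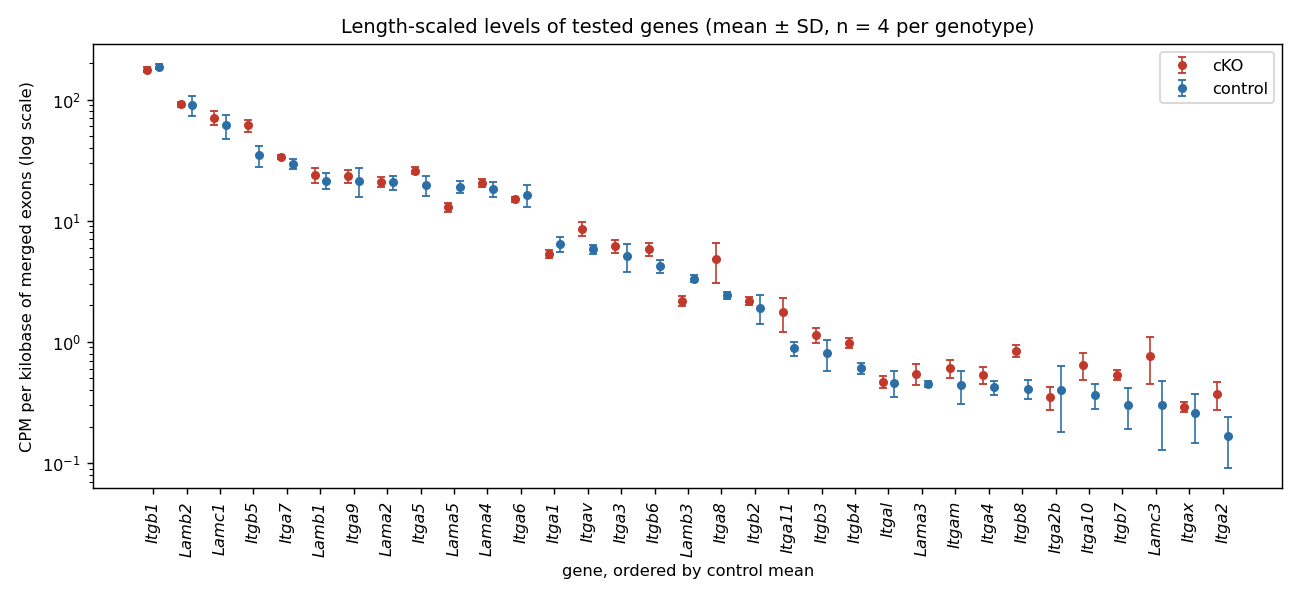
Length-scaled level (y axis, CPM per kilobase of merged exons, log scale) of tested genes, ordered by the control mean, with red points for cKO and blue points for control and bars of 1 SD (n = 4 per genotype). Itgb1 leads at 176 in cKO and 187 in control ventricles, and the 2 genotypes stand farthest apart among the well expressed genes at Itgb5, with 61.1 and 34.7.

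Of the αv chain and 4 of its β partners (β3, β5, β6 and β8), 4 genes rose and Itgb3 was not called. Over all tested genes 9.64% rose. The common chain β1, which also pairs with αv, is left out of that count. Its gene Itgb1 was not called (log2 fold change -0.08, adjusted p = 0.503, edgeR). Itgav (chromosome 2, 83724397 to 83806916, GRCm38) encodes the αv chain itself. It stood at 96.6, 86.2, 106 and 79.4 CPM in cKO libraries, against 57.4, 66.0, 59.1 and 67.5 CPM in control libraries. Every cKO library was above every control library, and the female cKO library was the highest. The log2 fold change was 0.56 with an SE of 0.10, a 1.48-fold higher level (adjusted p = 0.00244, edgeR).

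Itgb5 (chromosome 16, 33829665 to 33949338) encodes the β5 chain of the vitronectin receptor αvβ5. It had 205, 232, 243 and 189 CPM in cKO libraries, against 108, 110.1, 115 and 160.0 CPM in control libraries. The genotypes did not overlap, although control replicate 4 stood apart from the other 3 controls. Itgb5 rose 1.76-fold (log2 fold change 0.82, SE 0.13, adjusted p = 0.00124, edgeR), and without control replicate 4 the log2 fold change was 0.97.

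Itgb8 (chromosome 12, 119158022 to 119238802), whose β8 chain pairs with αv to activate latent TGF-β, was scarcer and rose more. It had 9.73, 8.09, 8.94 and 10.5 CPM in cKO libraries, against 3.99, 4.90, 5.52 and 3.82 CPM in control libraries. The 8 libraries fell into 2 ranges with a gap between 5.52 and 8.09 CPM. Its level was 2.04-fold higher (log2 fold change 1.03, SE 0.16, adjusted p = 0.000948, edgeR).

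Itgb6 (chromosome 2, 60598292 to 60722643) encodes β6, known mostly from epithelia, where αvβ6 also activates TGF-β. Its values were 34.9, 40.0, 45.3 and 45.9 CPM in cKO libraries, against 30.9, 32.8, 24.8 and 32.0 CPM in control libraries. The lowest cKO library stood just above the highest control library. Itgb6 rose 1.38-fold (log2 fold change 0.47, SE 0.11, adjusted p = 0.0136, edgeR), and among males only, 3 against 3, the adjusted p was 0.0618.

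Itgb3 encodes the β3 chain shared by the platelet fibrinogen receptor and αvβ3. It had 5.74 to 7.99 CPM in cKO libraries and 3.83 to 6.81 CPM in control libraries. Control replicate 2 was the high control and lay inside the cKO range. The gene was not called (log2 fold change 0.49, adjusted p = 0.114, edgeR), and without that library the values were 0.71 and 0.0168.

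Of the other α chains that bind RGD, Itga8 rose and Itga5 and Itga2b were not called. Itga8 (chromosome 2, 12106632 to 12301922) encodes the receptor chain for nephronectin, known from mesenchymal cells. It had 52.5, 31.2, 21.3 and 37.4 CPM in cKO libraries, against 19.4, 16.7, 18.0 and 17.3 CPM in control libraries. The controls were tight and the cKO libraries were spread widely, with the female library lowest at 21.3, still above every control. The level was 1.99-fold higher (log2 fold change 0.99, SE 0.21, adjusted p = 0.00676, edgeR). An antisense gene covers 5.05% of its exonic length, and it held 5 to 50 counts per library.

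Itga5, the fibronectin receptor chain, gave 122, 125, 139.7 and 122 CPM in cKO libraries, against 101.7, 100.3, 71.4 and 116 CPM in control libraries. The genotypes did not overlap, but the spread among controls was wide and the gene missed the threshold (log2 fold change 0.39, SE 0.13, adjusted p = 0.0512, edgeR). It passed under 8 of 17 alternative settings. The lowest control was replicate 3, the female, and without it the log2 fold change was 0.26 (adjusted p = 0.0621, edgeR). Among males only the log2 fold change was 0.22 (adjusted p = 0.134, edgeR). Itga2b, the platelet αIIb chain, had 1.58 to 2.48 CPM in cKO and 1.18 to 3.63 CPM in control libraries and was not called (log2 fold change -0.20).

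Among the 4 collagen-binding α chains 3 rose, where 9.64% of all tested genes rose. The most abundant of the 4 chains, Itga1, did not rise. Itga11 (chromosome 9, 62677826 to 62783982) encodes the fibrillar collagen receptor chain of fibroblasts. It had 6.87, 6.59, 12.6 and 9.84 CPM in cKO libraries, against 5.30, 3.87, 4.67 and 4.34 CPM in control libraries. All cKO libraries were above all controls, with the female cKO library the highest. Itga11 rose 1.97-fold (log2 fold change 0.98, SE 0.21, adjusted p = 0.0076, edgeR).

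Itga2 (chromosome 13, 114833081 to 114932100) and Itga10 (chromosome 3, 96645584 to 96664519), the other collagen receptor chains that rose, had few reads, with 17 to 84 counts per library for Itga2 and 27 to 105 for Itga10. Itga2 stood at 2.53, 2.33, 2.06 and 3.61 CPM in cKO libraries, against 1.95, 0.931, 0.716 and 1.15 CPM in control libraries. Itga10 stood at 3.27, 2.59, 3.01 and 4.51 CPM in cKO libraries, against 2.18, 2.35, 1.6 and 1.41 CPM in control libraries. The genotypes were separate for both genes, by a narrow gap each. Itga2 was 2.21-fold higher (log2 fold change 1.15, SE 0.32, adjusted p = 0.0273) and Itga10 was 1.77-fold higher (log2 fold change 0.83, SE 0.25, adjusted p = 0.0353, edgeR). Leaving out control replicate 2, 3 or 4 or cKO replicate 1 or 4 ended the Itga2 call (adjusted p 0.0579 to 0.0831). Leaving out control replicate 3 or 4 or cKO replicate 1, 3 or 4 ended that of Itga10 (adjusted p 0.0515 to 0.105). Among males only the adjusted p of Itga10 was 0.0845, and another gene on the same strand shares 33.5% of its exonic length.

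Itga1, whose α1β1 receptor binds the collagen of basement membranes, had 90.6 to 108 CPM in cKO libraries and 98.7 to 141 CPM in control libraries. The ranges overlapped, and the gene was not called (log2 fold change -0.27, adjusted p = 0.0939, edgeR). With sex as a covariate its adjusted p was 0.0317, among males only 0.0433, and without control replicate 3 it was 0.0186, each time with a lower level in cKO ventricles.

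Of the chains that bind laminin, Itgb4 rose, while Itga3, Itga6 and Itga7 were not called. Itga7, the main laminin receptor chain of striated muscle, had 277, 270.2, 259 and 285 CPM in cKO libraries, against 258, 217, 218 and 263 CPM in control libraries. The genotypes overlapped, at 259 CPM in the lowest cKO library and 263 CPM in the highest control library. Its log2 fold change was 0.19 with an SE of 0.09 (adjusted p = 0.147, edgeR), and with total counts alone it passed (adjusted p = 0.0256).

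Itga6, the laminin receptor chain of endothelium and epithelium, had 136, 134, 128 and 144 CPM in cKO libraries, against 168, 175, 113 and 129 CPM in control libraries. The cKO libraries lay close together inside the wider control range, and the gene was not called (log2 fold change -0.11, SE 0.13, adjusted p = 0.606, edgeR). Itga3 was not called either (log2 fold change 0.28, adjusted p = 0.256), except without control replicate 4, where the adjusted p was 0.0179.

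Itgb4 (chromosome 11, 115974709 to 116008412) encodes β4, the partner of α6 in hemidesmosomes of epithelia. It had 7.58, 6.90, 5.98 and 6.96 CPM in cKO libraries, against 4.8, 4.26, 3.71 and 4.34 CPM in control libraries. No control library reached the lowest cKO library. Itgb4 rose 1.6-fold (log2 fold change 0.68, SE 0.15, adjusted p = 0.00697, edgeR).

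Itgb1 (chromosome 8, 128685654 to 128733200), the common β chain of the collagen, laminin and fibronectin receptors, had 747, 688, 689 and 753 CPM in cKO libraries, against 749, 796, 714 and 787 CPM in control libraries. The ranges overlapped, and no change was called (log2 fold change -0.08, SE 0.08, adjusted p = 0.503, edgeR). Per length, Itgb1 made up 70.8% ± 2.90 of all integrin β chain counts in cKO ventricles and 81.4% ± 2.10 in controls (SD, n = 4 each). Itgb5 made up 24.6% ± 2.97 in cKO ventricles and 15.0% ± 2.31 in controls, so a larger part of the pool was the αv partner β5. In no library did these shares cross between genotypes: the Itgb1 share was 67.8% to 73.8% in cKO libraries and 78.3% to 82.9% in control libraries. Shares of a class depend on each other, so a higher Itgb5 level alone lowers the Itgb1 share. The shares are a description and were not tested.

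None of the remaining integrins passed the threshold in the edgeR test with TMM. Itga4 (log2 fold change 0.35, adjusted p = 0.150) and Itga9 (0.13, adjusted p = 0.676) encode receptor chains for VCAM-1 and, for α9, tenascin-C. Itgb7, the β partner of α4 in gut-homing lymphocytes, stood at 1.38 to 1.70 CPM in cKO and 0.490 to 1.2 CPM in control libraries. Its ranges were separate, but it was not called (log2 fold change 0.82, adjusted p = 0.0787, edgeR), with 10 to 41 counts per library. With total counts alone its adjusted p was 0.0476, and without control replicate 4 it was 0.0442. The leukocyte chains Itgb2, Itgal, Itgam and Itgax had log2 fold changes of 0.19, 0.03, 0.45 and 0.19, and their adjusted p-values ran from 0.252 to 0.945. In Itgam, 68.7% of the exonic length is shared with a second annotated gene on the same strand, so its counts are uncertain.

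Too few reads were found to test 3 genes. Itgae, the αE chain of lymphocytes in epithelia, had 38 counts over the 4 cKO libraries and 23 over the 4 control libraries. The neutrophil gene Itgb2l had 1 count in cKO and 2 in control libraries, and Lama1, the laminin α1 chain known from the embryo, had 2 in cKO and 4 in control libraries. Differences in these genes were not detectable at this depth.

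**Figure D3:**
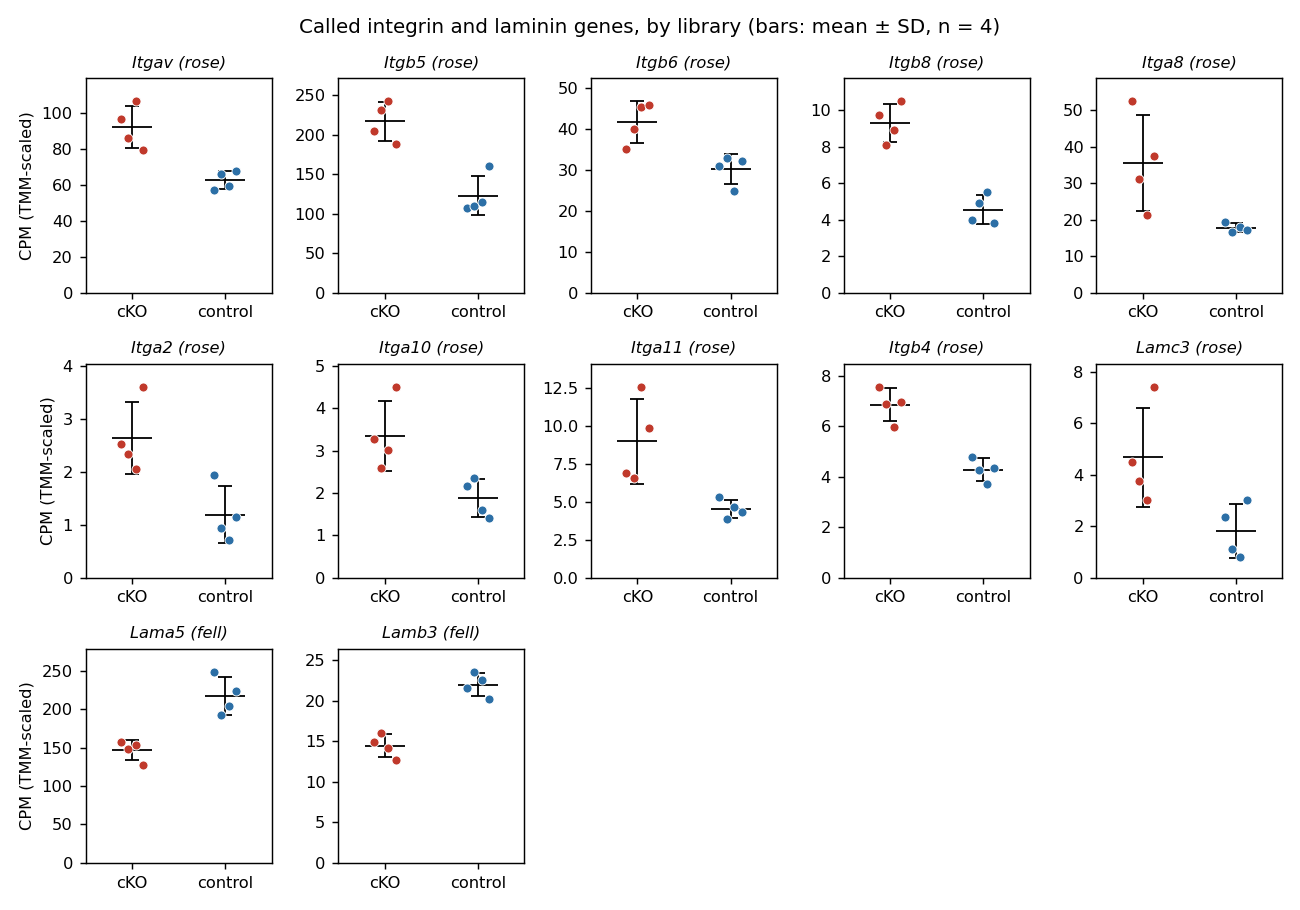
CPM (y axis, TMM-scaled, from 0) in each of the 4 cKO (red, left) and 4 control libraries (blue, right) for called genes, with the mean and bars of 1 SD. The genotypes are separate in every panel but Lamc3, where the lowest cKO library, at 3.01 CPM, lies just under the highest control library, at 3.03 CPM.

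The laminin α chains set which receptors a laminin binds. Lama5 (chromosome 2, 180176373 to 180225859), the α5 chain of vessel and epithelial basement membranes, was the α chain that fell. It had 157, 148, 153 and 128 CPM in cKO libraries, against 249, 192, 204 and 224 CPM in control libraries. Every cKO library was below every control library. The level was 1.48-fold lower (log2 fold change -0.57, SE 0.10, adjusted p = 0.00194, edgeR).

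Lama2, the α2 chain of the muscle basement membrane, whose loss causes a congenital muscular dystrophy, had 371, 366, 301 and 327 CPM in cKO libraries, against 355, 328, 284 and 384 CPM in control libraries. The libraries of both genotypes were mixed, and the log2 fold change was 0.01 (SE 0.10, adjusted p = 0.943, edgeR). Lama4, the α4 chain of capillaries and also of cardiomyocytes, had 256, 240.0, 224 and 265 CPM in cKO libraries, against 247, 221, 177 and 235 CPM in control libraries. The ranges overlapped here too, and the gene was not called (log2 fold change 0.16, SE 0.10, adjusted p = 0.328). Lama3 had 4.31 to 6.91 CPM in cKO and 4.46 to 5.17 CPM in control libraries and was not called (adjusted p = 0.280).

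As shares of all laminin α chains per length, Lama5 made up 23.6% ± 2.27 in cKO ventricles and 32.7% ± 2.45 in controls (SD, n = 4 each), a difference of -9.17 percentage points. Lama4 made up 37.3% ± 2.42 in cKO ventricles and 31.1% ± 1.63 in controls, 6.19 points more. Lama2 made up 38.1% ± 1.69 in cKO ventricles and 35.4% ± 1.59 in controls, 2.77 points more. The Lama5 share was 20.9% to 26.4% in cKO libraries and 30.3% to 35.6% in control libraries, and the Lama4 share was 35.6% to 40.9% and 29.0% to 32.9%, so neither overlapped between genotypes. The Lama2 share did overlap. Shares of a class depend on each other, so a lower Lama5 level alone raises the Lama4 share. Lama4 itself was not called. With the longest transcript as the length, the Lama5 difference was -6.64 points and the Lama2 difference 0.97 points.

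**Figure D4:**
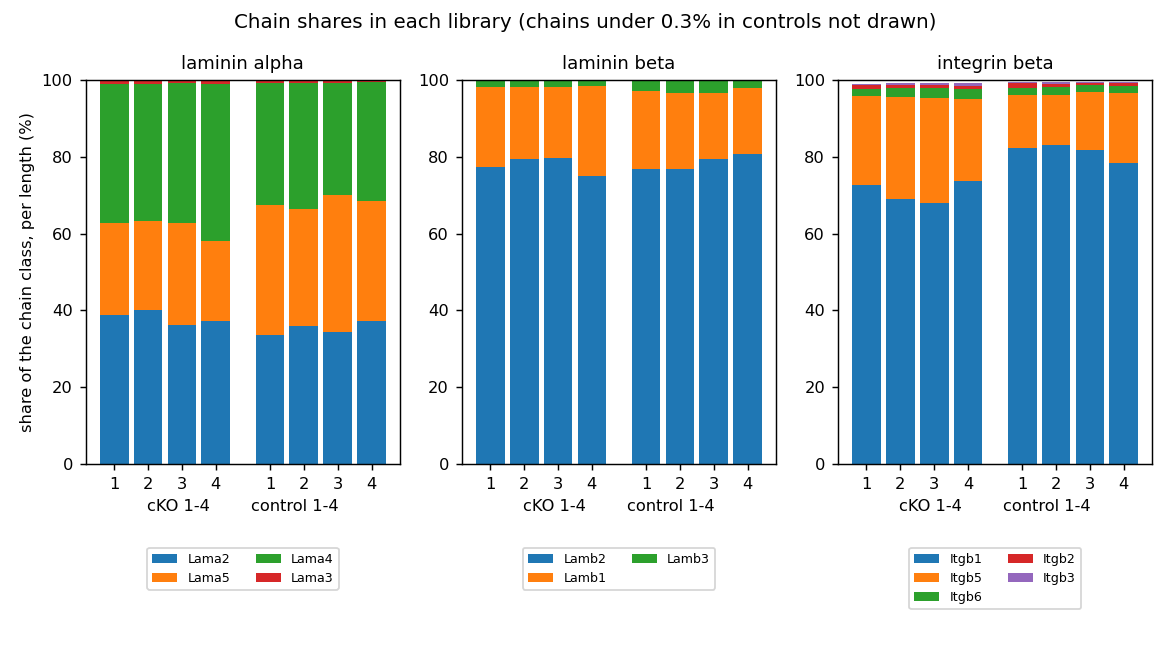
Share of each chain in its class (y axis, percent of the length-scaled counts) in each cKO library (left 4 bars) and control library (right 4 bars), for laminin α and β chains and integrin β chains. Lama5 takes 23.6% of the α chains in cKO ventricles and 32.7% in controls, and Itgb5 takes 24.6% of the integrin β chains in cKO ventricles and 15.0% in controls.

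Of the laminin β chains Lamb3 fell, and the 2 abundant chains were not called. Lamb3 (chromosome 1, 193207699 to 193343878) encodes β3, known as part of the anchoring laminin of skin. It had 14.9, 16.0, 14.2 and 12.6 CPM in cKO libraries, against 21.6, 23.6, 22.5 and 20.2 CPM in control libraries. Both genotypes were tight and did not overlap. The level was 1.52-fold lower (log2 fold change -0.61, SE 0.10, adjusted p = 0.00139, edgeR).

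Lamb2, the β2 chain found in mature muscle basement membranes, had 563, 590.3, 529.7 and 547 CPM in cKO libraries, against 536, 485, 480.4 and 702 CPM in control libraries. Control replicate 4 was the highest library and the other 3 controls were at or below the middle of the cKO range (log2 fold change 0.02, SE 0.12, adjusted p = 0.940, edgeR). Lamb1 had 245, 227, 199 and 279 CPM in cKO libraries, against 232, 205, 171 and 242 CPM in control libraries. It overlapped between genotypes and was not called (log2 fold change 0.16, SE 0.13, adjusted p = 0.423). Lamb2 made up 77.8% of the β chains per length in cKO ventricles and 78.4% in controls.

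Lamc1, the γ1 chain present in most laminins, had 661, 575, 481 and 631 CPM in cKO libraries, against 606, 502, 349 and 568 CPM in control libraries. The ranges overlapped, with the female library lowest in both genotypes, and the gene was not called (log2 fold change 0.21, SE 0.16, adjusted p = 0.397, edgeR). Lamc1 made up 95.3% ± 1.30 of the γ chains per length in cKO ventricles and 97.5% ± 0.65 in controls (SD, n = 4 each).

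Lamc3 (chromosome 2, 31887291 to 31946539), the γ3 chain, was scarce and had the highest fold change of the 34 genes. It had 4.51, 3.78, 3.01 and 7.44 CPM in cKO libraries, against 2.36, 1.13, 0.800 and 3.03 CPM in control libraries. The 2 ranges touched at 3.0 CPM, and replicate 4 was the highest library of both genotypes. Lamc3 rose 2.58-fold (log2 fold change 1.37, SE 0.40, adjusted p = 0.0331, edgeR), and the call was lost without control replicate 2 (adjusted p = 0.0882), control replicate 3 (0.0617), cKO replicate 1 (0.0682) or cKO replicate 4 (0.105).

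Partners of these chains were described by 3 lists chosen from textbook roles, with earlier results of these data known. Of 28 tested adaptor and focal adhesion genes, which link integrin tails to actin and to kinases, 5 rose (17.9%, against 9.64% of all tested genes) and 1 fell, with a median log2 fold change of 0.08. The kinase gene Ptk2b, whose product PYK2 is the calcium-sensitive relative of focal adhesion kinase, had 23.4, 20.4, 21.1 and 20.9 CPM in cKO libraries, against 8.34, 9.75, 7.16 and 12.0 CPM in control libraries. Its ranges were far apart, and it rose 2.31-fold (log2 fold change 1.21, adjusted p = 0.000238, edgeR). The actin crosslinker Actn1 rose 1.28-fold (adjusted p = 0.0176) and the tensin gene Tns3 rose 1.43-fold (adjusted p = 0.0282). Tln2, the talin of striated muscle that activates integrins, was 1.30-fold lower (adjusted p = 0.0314), and the libraries of Tns3 and Tln2 overlapped. Actn1 passed in 13 of 17 alternative settings, Tns3 in 11 and Tln2 in 11. Pxn (adjusted p = 0.0357) and Flnc (adjusted p = 0.0499, with overlapping libraries) rose as well, but passed in only 8 and 7 of 17 alternative settings. Among males only, 1 adaptor gene rose, and leaving out single libraries left 1 to 5. Fermt1 was at 0 counts in all libraries, and Ilk was not tested because it had 2 to 11 counts per library; 76.8% of its exonic length is shared with Taf10 on the other strand.

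Of the 24 basement membrane partners of laminin, 8 rose (33.3%) and 2 fell (8.3%), against 9.64% of all tested genes each way. The median log2 fold change of the list was 0.25. Of the type IV collagen genes, Col4a6 had 12.4, 11.7, 9.34 and 14.3 CPM in cKO libraries, against 4.62, 2.89, 4.21 and 2.93 CPM in control libraries, and rose 3.24-fold (adjusted p = 0.000167, edgeR). Col4a4 had 71.7, 65.1, 61.5 and 83.2 CPM in cKO libraries, against 30.8, 33.2, 21.3 and 34 CPM in control libraries, and rose 2.36-fold (adjusted p = 2.0e-04). Neither gene overlapped between genotypes, and Col4a3 (2.85-fold) and Col4a5 (1.56-fold) were called upwards as well. The abundant chains Col4a1 and Col4a2 were not called (adjusted p = 0.444 and 0.661, edgeR). Nor were Nid1 (adjusted p = 0.085), Nid2 (0.131), Hspg2 (0.990), Agrn (0.972) and Dag1 (0.385, edgeR). Nid1 passed in 6 of 17 alternative settings and Nid2 in 2.

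Smoc1, a basement membrane glycoprotein gene, rose 2.17-fold (adjusted p = 0.000314). Frem1, which encodes a matrix protein of epithelial basement membranes, had 6.09, 6.20, 13.9 and 5.24 CPM in cKO libraries, against 1.18, 1.13, 1.18 and 1.67 CPM in control libraries, a 6.11-fold rise (adjusted p = 0.000314, edgeR). Its female cKO library stood far above the others, and without it the log2 fold change was 2.18, against 2.61 with it. Col15a1 and Col18a1 also rose. Bcam, which encodes a receptor for laminin α5, and Sgcd, which encodes δ-sarcoglycan of the dystrophin complex, were the 2 that fell.

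Of 23 tested ligands that integrins bind besides laminin, 13 rose (56.5%) and 2 fell (8.7%), against 9.64% of all tested genes each way. The median log2 fold change of the list was 0.58. Postn, which encodes the αv ligand periostin, had 271, 176, 335 and 288 CPM in cKO libraries, against 68.4, 78.3, 50.4 and 60.4 CPM in control libraries, and rose 4.15-fold (adjusted p = 4.82e-05, edgeR). Spp1, the osteopontin gene, had 1.53, 1.93, 1.94 and 1.2 CPM in cKO libraries, against 0.272, 0.245, 0.253 and 0.366 CPM in control libraries, and rose 5.76-fold (adjusted p = 0.000293). Postn was separate between genotypes by a wide gap. Spp1 held 28 to 49 counts in cKO libraries but only 5 to 7 in control libraries. All its control libraries lay under the filter level of 0.445 CPM. Spp1 was thus tested, and counted among the 13 that rose, only through its cKO level, so its fold change and separation carry little weight.

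Tgfb3 and Tgfb1, in the same list, encode latent TGF-β, the cargo of αvβ6 and αvβ8. Tgfb3 had 50.5, 45.0, 49.5 and 48.2 CPM in cKO libraries, against 29.0, 24.3, 22.3 and 33.6 CPM in control libraries, a 1.77-fold rise (adjusted p = 0.000669, edgeR). Tgfb1 had 20.4 to 25.5 CPM in cKO libraries and 18.2 to 28.2 CPM in control libraries and was not called (log2 fold change -0.04, adjusted p = 0.872). Ltbp1, which encodes a latent TGF-β binding protein, had 104, 104, 81.5 and 100.3 CPM in cKO libraries, against 171, 156, 151 and 178 CPM in control libraries, and was 1.68-fold lower (adjusted p = 0.000329). The other genes that rose were Fn1, Tnc, Npnt, Thbs1, Fbn1, Vwf, Vcam1, Col1a1, Col1a2 and Col3a1, and Vtn fell. Fbn1 passed in 11 of 17 alternative settings (adjusted p up to 0.150), and Vtn, with overlapping libraries, in 9 of 17 (adjusted p up to 0.10). Col3a1 passed in 14, and Tnc and Vwf in 16 each. Npnt encodes nephronectin, the ligand of the α8 chain.

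Cardiomyocyte markers were the most abundant of the cell type marker lists, at 42510 to 49120 CPM summed over 12 genes in cKO libraries and 50010 to 64280 CPM in control libraries, with 3 of 12 genes called downwards (Tnni3, Ryr2 and Atp2a2). Of 12 fibroblast markers 11 rose, and their sum was 4772 to 5061 CPM in cKO libraries and 2471 to 3140 CPM in control libraries. Of 10 activated fibroblast markers 7 rose, with sums of 468 to 751 CPM in cKO libraries and 193 to 307 CPM in control libraries. Beside these counts, 9.64% of all tested genes rose and 9.64% fell. Postn, Tnc, Col1a1 and Col1a2 stand in the fibroblast and activated fibroblast lists and also among the integrin ligands. Whether the fibroblast signal has a part in the higher integrin, collagen and ligand levels was not tested, and in bulk tissue more cells of a type and more RNA per cell cannot be told apart.

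Endothelial markers, which bear on the chains of vessels such as Lama4, Lama5 and Itga6, had sums of 1475 to 1739 CPM in cKO libraries and 1615 to 1954 CPM in control libraries. The ranges overlapped, and 1 of 12 genes (Flt1) fell, where 9.64% of all tested genes fell and 9.64% rose. Smooth muscle and pericyte markers overlapped too, at 3834 to 4414 CPM in cKO libraries and 3940 to 4689 CPM in control libraries. Of these 12 genes 1 rose and 3 fell (Kcnj8, Abcc9 and Vtn), and Vtn also stands among the integrin ligands. Schwann cell markers, of interest since peripheral nerve has its own laminin sheath, stood at 145 to 155 CPM in cKO libraries and 89.5 to 100.7 CPM in control libraries, with 2 of 8 called upwards. Markers of epicardium and mesothelium, the heart's epithelial layer, stood at 48.8 to 59.6 CPM in cKO libraries and 21.6 to 50.3 CPM in control libraries. These ranges overlapped, and 2 of the 8 genes rose (Krt8 and Krt18), with a median log2 fold change of 0.075 over the list. The part of these cells in the results for Itgb4, Itgb6 and Lamb3 was not tested.

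Macrophage markers summed to 317 to 369 CPM in cKO libraries and 202 to 314 CPM in control libraries. Cd163 and Mrc1 of 12 were called upwards (16.7%, against 9.64% of all tested genes). Lymphocyte markers stayed low, at 5.06 to 9.62 CPM in cKO libraries and 4.02 to 8.43 CPM in control libraries (5 of 12 genes had enough reads to be tested). Neutrophil markers stood at 2.61 to 3.91 CPM in cKO libraries and 1.31 to 5.30 CPM in control libraries (2 of 8 genes tested). Their defining gene Ly6g was at 0 in all libraries. Platelet markers stood at 15.3 to 16.3 CPM in cKO libraries and 9.01 to 22.9 CPM in control libraries. Of 8 platelet genes 3 were tested, with Gp1ba called upwards, and Gp1bb was at 0.

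**Figure D5:**
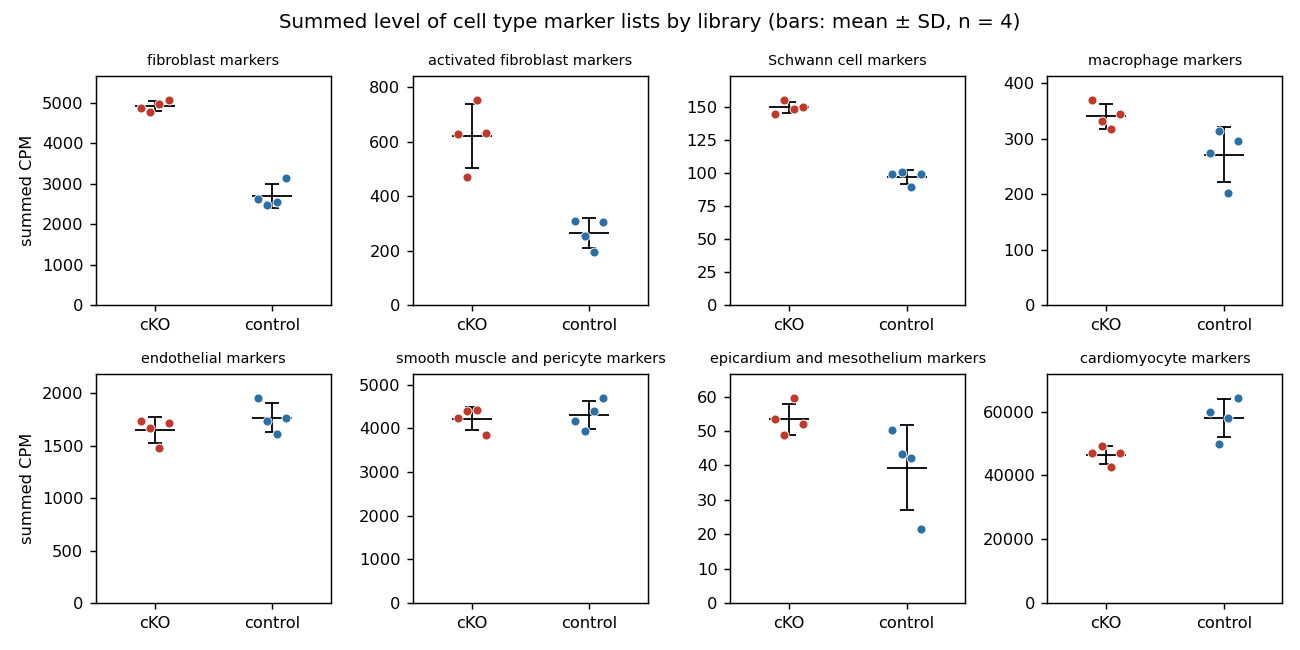
Summed CPM (y axis, from 0) of 8 cell type marker lists in each of the 4 cKO (red, left) and 4 control libraries (blue, right), with the mean and bars of 1 SD. Fibroblast markers sum to 4772 to 5061 in cKO libraries and 2471 to 3140 in control libraries, while the endothelial sums overlap.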

How the data were processed

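Polyadenylated RNA of heart ventricles was sequenced as stranded libraries, per the labels' protocols. The authors deposited whole-number counts per gene symbol, 1 column per library. HISAT2 2.0.4, featureCounts 1.6.0, FastQC 0.11.4 and edgeR 3.30.3 appear in the submitters' processing notes with no role given, beside mm10 and GRCm38 as builds. For the counting, neither annotation release nor strand setting is stated in the sources used here, so overlapping and antisense genes are uncertain. Of 54132 rows, 24 carry a number as symbol and were left out (0.115% to 0.132% of counts). No column was unmapped.

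The genotypes were compared with edgeR 4.0.16 (R 4.3.3), by quasi-likelihood tests with genotype as the only term, TMM, filterByExpr defaults and a two-sided threshold of 0.05 on p-values adjusted over all tested genes (Benjamini-Hochberg). TMM factors were 0.906 to 1.041. Simulated counts were used to test the script, and the genes' common biological variation was 0.16 as a coefficient. Alternatives were DESeq2 1.42.0 and its size factors, total counts, limma-voom (limma 3.58.1), no filter, at least 1 CPM in 4 libraries, robust dispersions, sex as a covariate, males only, each library left out, and an adjusted p under 0.01.

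Coordinates and lengths are from GENCODE M21 (GRCm38), which held 52990 symbols (97.9%), and promoters are from RefSeq (GRCm38.p6). No 2 libraries of 1 genotype agreed within sampling noise. The genes and lists were chosen with earlier results of these data known. Values per library are given for each called integrin or laminin gene but 1, which enters the counts and is not reported here, and for 12 chains known from cardiomyocytes or vessels whatever their result, and for up to 4 genes with the smallest adjusted p per partner list. No label pairs libraries across genotypes.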

Additional observations from a re-analysis of the deposited data

Results flagged for a closer look

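In 94 groups of 4 libraries, 6 held a library whose gap to the nearest of the others, as a part of the group's range, was over Dixon's critical value, and chance gives about 1 in 20. Itgb3 in control replicate 2 had 6.81 CPM (gap 0.871 of the range), and without it the log2 fold change was 0.71 (adjusted p = 0.0168, edgeR). Itgb5 in control replicate 4 had 160.0 CPM (0.871), and without it the log2 fold change was 0.97 (adjusted p = 0.000227). Itgb2 in cKO replicate 2 had 5.93 CPM (0.839), the lowest of its group. Frem1 had 13.9 CPM in cKO replicate 3 (0.89), without which its log2 fold change was 2.18, and 1.67 CPM in control replicate 4 (0.904), without which it was 2.75. Ltbp1 had 81.5 CPM in cKO replicate 3 (0.84), and without it the log2 fold change was -0.67.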

How the results depend on the processing

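Of the 37 genes, 11 rose and 2 fell. With 1 library left out, 8 to 12 rose and 2 to 3 fell, and with an adjusted p under 0.01 the number that rose was 7. With total counts alone 14 rose, and among males only 9 rose and 3 fell. Over all tested genes 1548 rose and 1547 fell in the main test. With total counts 1992 of all tested genes rose and 1021 fell, and among males only 1214 rose and 1166 fell. Of the partner lists, adaptors gave 1 that rose among males only and 1 with an adjusted p under 0.01, and 1 to 5 with 1 library left out. The adaptor that fell was lost (0) with total counts and with an adjusted p under 0.01, and 0 to 1 fell with 1 library left out. Of the other ligands, 1 fell with total counts, limma-voom and an adjusted p under 0.01, against 2, and 1 to 2 fell with 1 library left out, while 10 to 13 rose. Basement membrane partners gave 8 to 9 that rose and 2 that fell with 1 library left out.

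Among 578 comparisons of a single integrin or laminin gene's fold change with an alternative, 527 kept direction and side of the threshold, 16 passed it newly, 16 lost it and 19 changed sign, none of them called. Log2 fold changes of Itga2b were -0.41 to 0.15 with 1 library left out (above 0 without control replicate 2), and those of Itga9 were -0.047 to 0.24 (below 0 without control replicate 3). Itgb1 had 0.0016 with total counts. Itgal gave -0.032 among males only and -0.095 to 0.19 with 1 library left out, and Itgax gave -0.041 and -0.078 to 0.39. Lama2 gave -0.0043 among males only and -0.062 to 0.080 with 1 library left out. Lamb2 gave -0.020 and -0.046 to 0.15. The causes were not tested.

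With 1 library left out, share differences in percentage points were 2.13 to 3.40 for Lama2, 4.99 to 6.77 for Lama4, -10.1 to -8.21 for Lama5, 0.578 to 2.27 for Lamb1, -1.13 to 0.436 for Lamb2 and -2.39 to -1.52 for Lamc1. With the longest transcript Lama2 gave 0.97 and Lama5 -6.64. No paired analysis was possible because the labels give no numbers that pair libraries. The calls of Itga2, Itga10 and Lamc3, which had fewer than 100 counts in most libraries, were lost when some single libraries were left out.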
